A study of Neotoma lepida with 16 samples.

Results

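The carriers described here are membrane proteins that bring bile salts, organic anions, organic cations, monocarboxylates and nucleosides into cells, measured as RNA in the liver of the desert woodrat (Neotoma lepida). Members were chosen by name, as every probe whose gene name, after removal of the suffix "_predicted", begins with Slc10a, Slco, Slc22a, Slc16a, Slc28a or Slc29a. The rule took 57 of 41012 probes and 51 of 35561 genes or transcripts on the array, and it used no measured value. Of the 51 genes, 43 passed the filter on dim signals and were tested. The study crossed 2 populations with 2 diets, with 4 wild-caught animals in each of 4 groups. The groups were Mojave woodrats fed creosote bush (4 males), Mojave woodrats fed juniper (2 males and 2 females), Great Basin woodrats fed creosote bush (2 males and 2 females) and Great Basin woodrats fed juniper (2 males and 2 females). All animals lived in individual cages for 3 months on rabbit chow, and plant material was then added in rising amounts for 5 days. No group fed chow alone was analysed here, so a gene that is higher on creosote is equally one that is lower on juniper. Ages were not used here.

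Hepatocytes clear the portal blood through these families. The sodium-coupled Slc10a carriers and the sodium-independent Slco carriers (organic anion transporting polypeptides) take up bile salts, drugs and other organic anions. Slc22a members carry organic cations, carnitine, urate and organic anions, Slc16a members carry lactate, ketone bodies, aromatic amino acids and thyroid hormones, and the concentrative Slc28a and equilibrative Slc29a carriers move nucleosides. Roles given below are those known from rat, mouse or human, and none was measured in woodrats here.

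Each array compared the liver RNA of 1 animal, in the red dye, with an equimolar pool of all 16 animals, in the green dye. A value is therefore a log2 ratio of animal over pool, in which 0 is equal signal of animal and pool after normalization, and levels of different genes cannot be set against each other. The probes are rat sequences. Whether a probe reads only its own woodrat transcript was not examined, and no probe sequences or genome positions were used here. Between 46.39% and 76.22% of probe spots were well above background per array. The 4 arrays of slide 1 were dimmer, with 49.2% on average against 66% to 71.69% on the other slides. Each slide held 1 animal of every group, with both creosote animals always in the first positions and both Great Basin animals in the outer ones, so diet and population cannot be told apart from position on the slide. A bulk liver sample does not separate fewer cells of a type from less RNA per cell. Of 15 listed hepatocyte markers, 12 were tested, and their mean log2 ratio was 0.37 to 0.66 in Mojave creosote livers, against -0.12 to 0.04 in Mojave juniper livers. It was 0.47 to 0.78 in Great Basin creosote livers, against -0.17 to -0.07 in Great Basin juniper livers. Averaged over populations, 8 of the 12 were higher on creosote and 0 lower, where 12.1% of all genes passed the test in either direction, among them Alb (albumin), by 1.31, and G6pc (glucose-6-phosphatase), by 1.52. The part of this shift in the carrier differences below was not tested.

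Signal was uneven across the families. Among tested carriers, 28 were well above background on all 16 arrays and 15 on fewer. All 4 Slc10a genes, 10 of 12 Slco genes, 14 of 16 Slc22a genes, 8 of 12 Slc16a genes and all 7 Slc28a and Slc29a genes were tested. The 8 genes that failed the filter of 4 arrays included Slc16a4, Slc22a3, Slco1c1 and Slco6b1. They also included Slc16a1 and Slc16a7, the lactate carriers MCT1 and MCT2, which were well above background on 0 of 16 arrays. Slc22a6, the renal organic anion carrier OAT1, reached that level on 2 arrays. Slc10a1 encodes NTCP, the main sodium-coupled bile salt carrier of hepatocytes, and its probe was dim. It was well above background on 2 of 4 Mojave creosote arrays, 3 of 4 Mojave juniper arrays, 0 of 4 Great Basin creosote arrays and 3 of 4 Great Basin juniper arrays. Slco6c1 was well above background on 0 of 4 Mojave creosote arrays and on 4 arrays in all.

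Slc22a5 had the smallest adjusted p of any carrier between diets. It encodes OCTN2, the sodium-coupled carrier that brings carnitine into cells. In Mojave livers its log2 ratios were -0.74, -0.64, -0.41 and -0.39 on creosote, against 0.11, 0.41, 0.17 and 0.34 on juniper. Every creosote animal lay below every juniper animal. The group means were -0.54 ± 0.17 on creosote and 0.26 ± 0.14 on juniper (SD, n = 4 each). With the sex term in the model, limma put the difference at -0.86 ± 0.16 (SE), which is 1.82-fold lower on creosote, with an adjusted p of 0.003789. It was lower on creosote on 4 of 4 slides, by -1.04 to -0.58.

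Great Basin livers gave a smaller and more scattered difference in Slc22a5. The log2 ratios were -0.54, 0.03, -0.22 and -0.91 on creosote, against -0.03, -0.05, -0.07 and 0.11 on juniper. Creosote animals spread widely (-0.41 ± 0.40) and overlapped the tightly grouped juniper animals (-0.01 ± 0.08; SD, n = 4 each). The limma difference was -0.40 ± 0.15 (SE), with an interval of -0.72 to -0.08 before adjustment for many genes, and its adjusted p was 0.17. Without Great Basin creosote replicate 2, whose value was highest, it was -0.54 with an adjusted p of 0.04485, and over all fits that left out 1 animal the adjusted p ran up to 0.384. The difference between the populations in diet response was -0.46 ± 0.22 (SE), with an interval of -0.93 to 0.01 and an adjusted p of 0.392 in limma. A larger diet difference in Mojave livers was therefore not shown. With arrays centred on their median in place of loess it was -1.08 with an adjusted p of 0.04413, and over the other alternatives the adjusted p reached 0.6017. Averaged over populations, Slc22a5 was 1.55-fold lower on creosote (-0.63 ± 0.11, SE), with an adjusted p of 0.001452 in limma. That call and the Mojave call held in all 16 fits with 1 animal left out and under all 14 other alternatives. A second Slc22a5 probe was well above background on 0 of 16 arrays, so the result rests on a single probe.

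**Figure D1:**
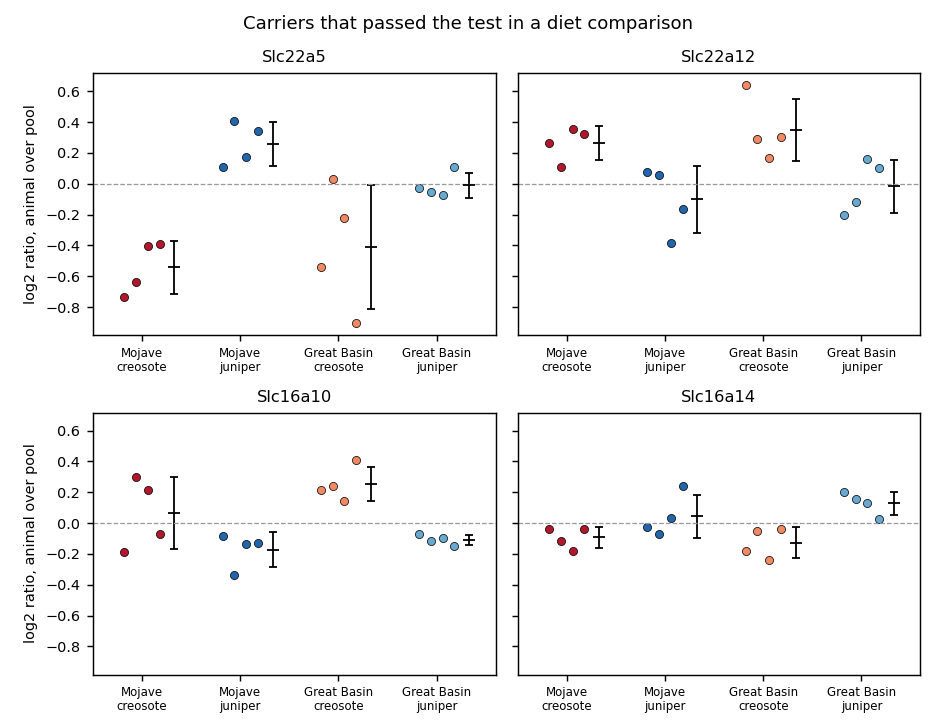
Log2 ratio of animal over pool (y axis) for the 4 carriers that passed the test in a diet comparison, by group of population and diet (x axis). Each point is 1 animal, and bars beside the points are the mean ± SD of 4 animals. For Slc22a5, all 4 Mojave creosote animals (-0.74 to -0.39) lie below all 4 Mojave juniper animals (0.11 to 0.41).

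Slc25a20 and Crat, both of carnitine handling inside the cell, were also lower on creosote. Of the other tested genes of their list, Chdh was lower too and some were higher, as given below. Slc25a20, the carrier that moves acylcarnitines into mitochondria, had log2 ratios of -0.88, -0.44, -0.32 and -0.38 in Mojave creosote livers, against 0.20, 0.27, 0.32 and 0.30 in Mojave juniper livers. In Great Basin livers it had -0.13, -0.19, -0.45 and -0.75 on creosote, against 0.14, 0.02, 0.29 and 0.31 on juniper. Neither pair of groups overlapped. Slc25a20 fell on creosote by 0.87 in Mojave livers and by 0.57 in Great Basin livers, with limma adjusted p-values of 0.001044 and 0.01474. Crat, carnitine acetyltransferase, had -1.04, -0.89, -0.51 and -0.51 in Mojave creosote livers, against 0.43, 0.65, 0.55 and 0.54 in Mojave juniper livers. Great Basin livers had -0.28, -0.33, -0.38 and -1.08 on creosote, against 0.32, -0.13, 0.34 and 0.38 on juniper. Again the creosote animals lay below the juniper animals in both populations. Crat fell by 1.39 in Mojave livers (adjusted p = 0.0003027) and by 0.75 in Great Basin livers (adjusted p = 0.01432) in limma. The mitochondrial carnitine palmitoyltransferase Cpt2 differed by -0.04, with an adjusted p of 0.7417, averaged over populations.

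The whole list of carnitine and organic cation metabolism held 17 genes, of which 11 were tested. Averaged over populations, 4 were higher and 3 lower on creosote, where 5.73% of all genes were higher and 6.38% lower, with a list median of -0.022 against -0.0061 over all genes. The genes that rose were Aldh7a1, Maoa, Maob and Pemt, which oxidise aldehydes and amines or make phosphatidylcholine, and those that fell were Crat, Slc25a20 and the choline dehydrogenase Chdh. Chdh passed the test in Mojave livers (-0.62 ± 0.14, SE, limma adjusted p = 0.01118), where it averaged -0.59 ± 0.30 on creosote and 0.01 ± 0.09 on juniper. In Great Basin livers Chdh averaged -0.21 ± 0.21 on creosote and -0.14 ± 0.12 on juniper (SD, n = 4 each).

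Scaffold proteins hold several of these carriers at the membrane. Pdzk1, a PDZ-domain scaffold known to bind OCTN2 and Slco carriers, had log2 ratios of -0.92, -0.03, -0.36 and -0.18 in Mojave creosote livers, against 0.37, 0.47, 0.48 and 0.67 in Mojave juniper livers. Great Basin livers had -1.12, -0.55, -0.81 and -1.12 on creosote, against 0.20, -0.03, -0.08 and -0.11 on juniper. All creosote animals were below all juniper animals of their population. Pdzk1 fell on creosote by 0.84 in Mojave livers and by 0.90 in Great Basin livers, with limma adjusted p-values of 0.008655 and 0.006236. In each population it was the 1 gene that passed among 6 tested scaffold and accessory genes. Of all genes, 9.55% passed in Mojave livers and 3.97% in Great Basin livers. Bsg, the chaperone of MCT1 and MCT4, differed by 0.04 averaged over populations, with an adjusted p of 0.6893.

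**Figure D2:**
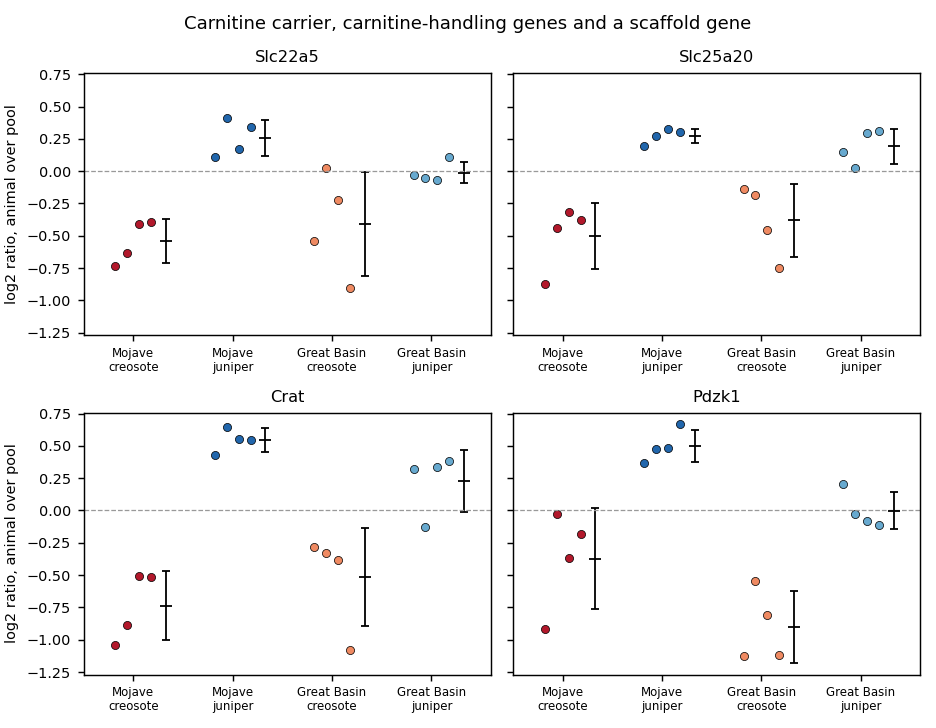
Log2 ratio of animal over pool (y axis) for Slc22a5, for Slc25a20 and Crat of carnitine handling, and for the scaffold gene Pdzk1, by group (x axis). Points are animals and bars are the mean ± SD (n = 4). Creosote animals lie below juniper animals of the same population for Slc25a20, Crat and Pdzk1 in both populations and for Slc22a5 in Mojave woodrats.

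Slc22a12 was the 1 carrier that passed the test in Great Basin livers. It encodes URAT1, a urate exchanger known from the kidney. Great Basin livers had log2 ratios of 0.64, 0.29, 0.17 and 0.30 on creosote, against -0.20, -0.12, 0.16 and 0.10 on juniper. The groups did not overlap, though the lowest creosote and the highest juniper animal were close. The difference was 0.37 ± 0.08 (SE), or 1.29-fold higher on creosote, with an adjusted p of 0.02015 in limma. Mojave livers had 0.26, 0.11, 0.35 and 0.33 on creosote, against 0.08, 0.06, -0.38 and -0.16 on juniper. These groups did not overlap either, and the difference of 0.22 ± 0.09 (SE) had an adjusted p of 0.1458. Averaged over populations Slc22a12 was 0.29 ± 0.06 (SE) higher on creosote, with an adjusted p of 0.004581 in limma, which reached 0.2532 when both probes of the gene were averaged.

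Several measurements bear on Slc22a12 directly. The fitted difference between males and females was 0.29 ± 0.07 (SE; adjusted p = 0.7553 in limma), and without the sex term the Great Basin adjusted p was 0.09853. It was 0.07587 without Great Basin creosote replicate 1, 0.0532 without Great Basin creosote replicate 4, 0.06763 without Great Basin juniper replicate 1 and 0.06277 without Great Basin juniper replicate 4. Over all alternatives beside those with 1 animal left out, the Great Basin adjusted p ran from 0.01818 to 0.7002. A second probe of Slc22a12 did not follow the first (Pearson r = 0.11 over 16 arrays). It averaged -0.07 ± 0.09 in Great Basin creosote livers and 0.12 ± 0.37 in Great Basin juniper livers (SD, n = 4 each), a difference of -0.19 with an adjusted p of 0.6138 in a limma fit over all kept probes. Kidney markers were examined because Slc22a12 is best known there. The mean log2 ratio of the 8 tested kidney markers was -0.02 to 0.11 in Great Basin creosote livers, against 0.02 to 0.13 in Great Basin juniper livers, and 1 of the 8, Umod, was higher on creosote there. In Mojave livers it was 0.04 to 0.10 on creosote, against -0.04 to 0.02 on juniper, without overlap. There Umod and Slc12a1 were higher on creosote, with limma adjusted p-values of 0.008135 and 0.0348, and Pax2 was lower (0.02509). Of all genes, 9.55% passed the test between diets in Mojave livers and 3.97% in Great Basin livers. The part of these markers in the result was not tested.

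Genes around urate and organic anions were measured beside it. Of 10 listed genes 7 were tested, and averaged over populations 3 were higher and 0 lower on creosote, where 12.1% of all genes passed the test. The list median was 0.35, against -0.0061 over all genes. The 3 that rose were Slc17a1, a sodium-phosphate and urate carrier (0.82 ± 0.15, SE), the phenol sulfotransferase Sult1a1 (0.62 ± 0.11, SE) and the citrate carrier Slc13a5 (0.35 ± 0.11, SE). Their limma adjusted p-values were 0.00249, 0.002279 and 0.04221. Uox, urate oxidase, which breaks urate down in rodents, averaged 0.60 ± 0.20 in 4 Mojave creosote livers and -0.48 ± 0.34 in 3 Mojave juniper livers (SD). It was higher on creosote by 1.28 ± 0.24 (SE) in Mojave livers and by 0.96 ± 0.22 (SE) in Great Basin livers, with limma adjusted p-values of 0.005193 and 0.02543.

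No Slc10a or Slco gene was called between diets in the fit with group means and sex. Slc10a1 differed by -0.08 ± 0.08 (SE) in Mojave livers and by 0.04 ± 0.07 (SE) in Great Basin livers, at signals close to background. Slco1b2, a liver carrier of bile salts and drugs, was well above background on 11 of 16 arrays. Its difference was 0.13 in Mojave livers, with an interval of -0.12 to 0.37, and -0.05 in Great Basin livers, with an interval of -0.27 to 0.18. The 4 Slc10a genes, among them the ileal bile salt carrier Slc10a2, had diet differences between -0.08 and 0.13 in Mojave livers and between -0.07 and 0.12 in Great Basin livers. Bile acid genes were listed beside them: 18 of 22 were tested, and averaged over populations 3 were higher and 0 lower on creosote, where 12.1% of all genes passed the test, with a median of 0.05. These were Slc27a5, the bile acid CoA ligase (0.89 ± 0.14, SE), the side-chain oxidase Acox2 (0.41 ± 0.11, SE) and the basolateral exporter Abcc4 (0.24 ± 0.05, SE), with limma adjusted p-values of 0.0004922, 0.02337 and 0.005319. In Mojave livers the basolateral exporter Abcc3 was lower on creosote, by -0.69 ± 0.20 (SE), with an adjusted p of 0.04351. Averaged over populations, the canalicular bile salt pump Abcb11 differed by 0.14, with an adjusted p of 0.7343 in limma.

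Slco1a5 had the largest fitted population difference of any tested carrier, under either diet, and the widest spread between animals in all groups but Great Basin creosote. It encodes an organic anion transporting polypeptide that carries bile salts in rat. Mojave creosote livers had log2 ratios of 0.11, -0.85, -0.36 and 0.54, against -1.44, -0.96, -1.60 and -1.05 in Great Basin creosote livers. All Mojave animals were above all Great Basin animals on creosote. On juniper, Mojave livers had 0.65, 1.38, -0.23 and 0.56, against -0.85, -0.99, -1.51 and 0.45 in Great Basin livers. Here the groups overlapped, through 1 low Mojave animal and 1 high Great Basin animal. Averaged over diets the Mojave level was higher by 1.10 ± 0.27 (SE), or 2.15-fold, and Mojave animals were higher on 4 of 4 slides under either diet. The adjusted p was 0.1698 in limma (0.001112 before adjustment), and it ran from 0.09391 to 0.7817 over the alternatives. Between diets, Slco1a5 averaged -0.14 ± 0.60 in Mojave creosote livers and 0.59 ± 0.66 in Mojave juniper livers, and -1.26 ± 0.30 in Great Basin creosote livers and -0.72 ± 0.83 in Great Basin juniper livers (SD, n = 4 each). The diet difference averaged over populations was -0.75 ± 0.27 (SE), with an adjusted p of 0.09616. With slide as a block, in which each slide holds 1 animal of every group, it was -0.80 with an adjusted p of 0.02833. It was also called without slide 1 (-0.96, adjusted p = 0.0399) and under median centring (-0.95, adjusted p = 0.04247), and the highest adjusted p over the alternatives was 0.252. The difference was -1.0 with an adjusted p of 0.01736 without Great Basin juniper replicate 3, and the range with 1 animal left out reached 0.2515.

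Slc22a17, a receptor of the iron-carrier protein lipocalin 2, varied most among Great Basin creosote animals. Those had 1.48, -0.17, 0.06 and -0.30, where Mojave creosote animals had -0.41, -0.56, -0.64 and 0.34. On juniper, Mojave animals had -0.45, -0.44, -0.74 and -0.47, against 0.69, 0.18, -0.46 and 0.46 in Great Basin animals. Averaged over diets, the Mojave level was -0.70 ± 0.25 (SE) relative to Great Basin, with an adjusted p of 0.3763 in limma. Slc22a18, an orphan carrier, averaged -0.06 ± 0.35 in Mojave creosote livers and 0.28 ± 0.19 in Mojave juniper livers (SD, n = 4 each), and the fitted difference of -0.43 had an adjusted p of 0.2004.

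**Figure D3:**
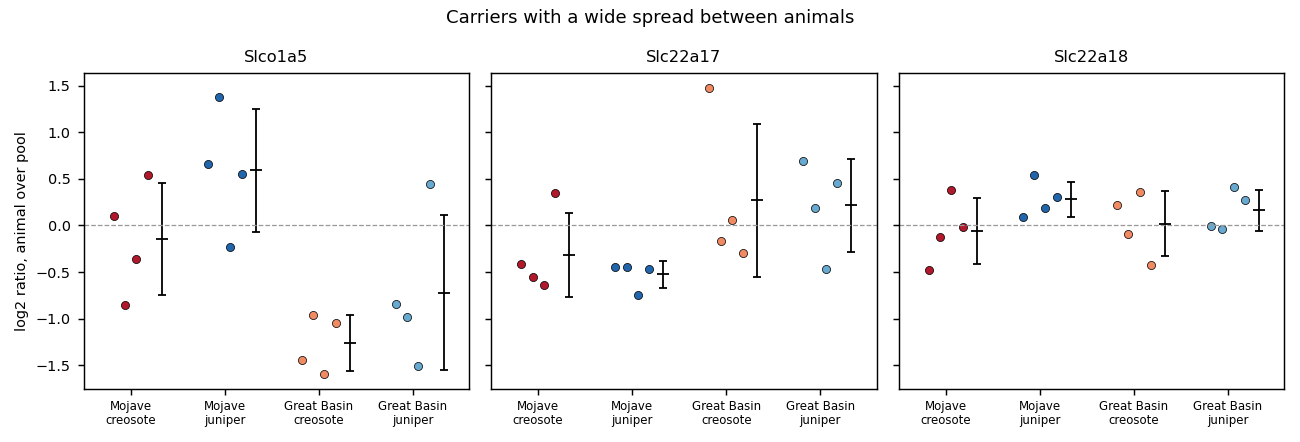
Log2 ratio of animal over pool (y axis) for the carriers Slco1a5, Slc22a17 and Slc22a18, which varied widely between animals, by group (x axis). Points are animals and bars are the mean ± SD (n = 4). For Slco1a5, Mojave creosote animals (-0.85 to 0.54) lie above Great Basin creosote animals (-1.60 to -0.96), and none of the carriers shown passed the test in the fit with group means and sex.

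Slc16a10 and Slc16a14 passed the test when both populations were averaged. Slc16a10 encodes TAT1, a carrier of aromatic amino acids. It had 0.21, 0.24, 0.15 and 0.41 in Great Basin creosote livers, against -0.07, -0.11, -0.10 and -0.15 in Great Basin juniper livers. The groups were separate, and the difference of 0.36 ± 0.10 (SE) had an adjusted p of 0.0558 in limma. Mojave livers had -0.19, 0.30, 0.22 and -0.07 on creosote, against -0.09, -0.34, -0.13 and -0.13 on juniper, and these overlapped. Averaged over populations Slc16a10 was higher on creosote by 0.31 ± 0.07 (SE), with an adjusted p of 0.01051 in limma. That adjusted p stayed at or below 0.03611 with any 1 animal left out. It was 0.1185 in the red channel alone, 0.07575 without slide 1 and 0.1464 in males alone, the highest of all alternatives.

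Slc16a14, an orphan member, moved the other way by a small amount. It had -0.18, -0.05, -0.24 and -0.04 in Great Basin creosote livers, against 0.20, 0.16, 0.13 and 0.02 in Great Basin juniper livers, which did not overlap. Mojave livers had -0.04, -0.11, -0.18 and -0.04 on creosote, against -0.03, -0.07, 0.03 and 0.24 on juniper, which did. The averaged difference was -0.17 ± 0.05 (SE), with an adjusted p of 0.04597 in limma. The call was kept in 1 of 16 fits with 1 animal left out, where the adjusted p reached 0.119. With slide as a block the adjusted p was 0.07766, and in the red channel alone the difference was 0.07 with an adjusted p of 0.645, the highest over the other alternatives, which went down to 0.02092. Other lactate and ketone carriers gave no call. Slc16a3 (MCT4, a lactate exporter) had diet differences of -0.06 in Mojave livers and 0.09 in Great Basin livers, with standard errors of 0.18 and 0.17. Of 12 tested genes of monocarboxylate and ketone metabolism, 2 were higher and 2 lower on creosote averaged over populations, where 12.1% of all genes passed the test. Lactate dehydrogenase Ldha fell by 0.83 and the pyruvate dehydrogenase kinase Pdk1 by 0.34, while Ldhb rose by 0.48 and the acetyl-CoA synthetase Acss2 by 0.71. Their limma adjusted p-values were 0.0007234, 0.04277, 0.04314 and 0.001937.

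Slc28a2, the 1 tested nucleoside carrier with a second probe, differed between its probes. It encodes CNT2, which takes up purine nucleosides with sodium. Its brighter probe had 0.30, -0.06, 0.17 and 0.15 in Great Basin creosote livers, against -0.17, 0.05, -0.47 and -0.32 in Great Basin juniper livers, with 1 animal of each group overlapping. The difference was 0.36 ± 0.10 (SE), with an adjusted p of 0.06098 in limma, and in Mojave livers it was -0.06 ± 0.11 (SE). The Great Basin adjusted p was 0.01092 in the red channel alone, 0.0295 under median centring, 0.04459 without Great Basin creosote replicate 2 and 0.0277 without Great Basin juniper replicate 2, and the highest over all alternatives was 0.2407. A second, dimmer probe had -0.52, -0.58, -0.22 and -0.43 in Mojave creosote livers, against 0.00, -0.11, 0.03 and 0.08 in Mojave juniper livers. Those groups were separate, and in the fit over all kept probes the difference was -0.39 ± 0.10 (SE), with an adjusted p of 0.01639. In Great Basin livers the second probe differed by 0.07 ± 0.09 (SE). The probes correlated weakly over the 16 arrays (Pearson r = 0.23), as did the probe pairs of Slc16a6 (0.15) and Slco2b1 (0.13). Slc29a1, the equilibrative carrier ENT1, had no diet call, with differences of 0.13 ± 0.12 (SE) in Mojave livers and -0.13 ± 0.11 (SE) in Great Basin livers. Among 16 tested genes of nucleoside metabolism, set beside the 12.1% of all genes that passed the test in either direction, 4 were higher on creosote averaged over populations (Uox, Upb1, Tk2 and Upp1) and 1 lower (Hprt, which salvages purines, by 0.73 with an adjusted p of 0.0002051 in limma). In Mojave livers, where 9.55% of all genes passed, Uck1 was lower too (-0.44 ± 0.12, SE, limma adjusted p = 0.03235).

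**Figure D4:**
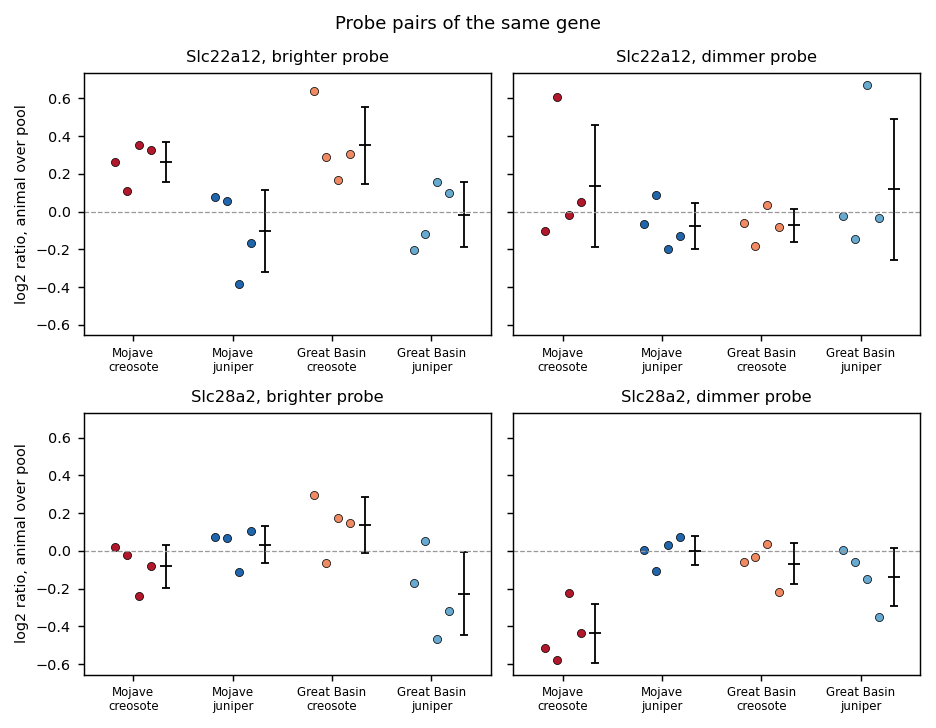
Log2 ratio of animal over pool (y axis) for both probes of Slc22a12 and of Slc28a2, by group (x axis). Points are animals and bars are the mean ± SD (n = 4). The creosote-high pattern of the brighter Slc22a12 probe in Great Basin livers (0.35 ± 0.20 on creosote, -0.02 ± 0.17 on juniper) is not shared by the dimmer probe (-0.07 ± 0.09 on creosote, 0.12 ± 0.37 on juniper).

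Across the families, few carriers passed the test between diets. In Mojave livers 1 of 43 did, Slc22a5, where 9.55% of all 26472 genes passed at an adjusted p under 0.05. In Great Basin livers 1 of 43 did, Slc22a12, where 3.97% of all genes passed. Averaged over populations 4 of 43 did, where 12.1% of all genes passed: 2 were higher on creosote, against 5.73% of all genes, and 2 lower, against 6.38%. None of these shares of carriers, at an adjusted p under 0.05, was above the share of all genes. An unadjusted limma p under 0.05 was seen for 10 of 43 carriers (23.3%) in Great Basin livers, above the 16.9% of all genes. It was seen for 7 (16.3%) in Mojave livers, against 22.1%, and for 9 (20.9%) averaged over populations, against 24.5%. Medians over the 43 carriers were close to those of all genes, at -0.029 against -0.0039 in Mojave livers and -0.0457 against -0.0056 in Great Basin livers. Groups did not overlap for 5 of 43 carriers in Mojave livers, against 16.7% of all genes, and for 4 of 43 in Great Basin livers, against 10.5%. In Mojave livers these were Slc22a12 and Slco4a1 above juniper, and Slc22a5, Slc22a14 and the prostaglandin carrier Slco2a1 below it. In Great Basin livers they were Slc16a10 and Slc22a12 above juniper, and Slc16a14 and Slc22a4 below it. The Slco2a1 probe was dim, well above background on 10 of 16 arrays. Those included 2 of 4 Mojave creosote arrays and 3 of 4 Mojave juniper arrays. Differences under 0.25 in size were seen for 39 of 43 carriers in Mojave livers and for 34 of 43 in Great Basin livers. The sign was the same in both populations for 23 of them, 8 higher and 15 lower on creosote.

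**Figure D5:**
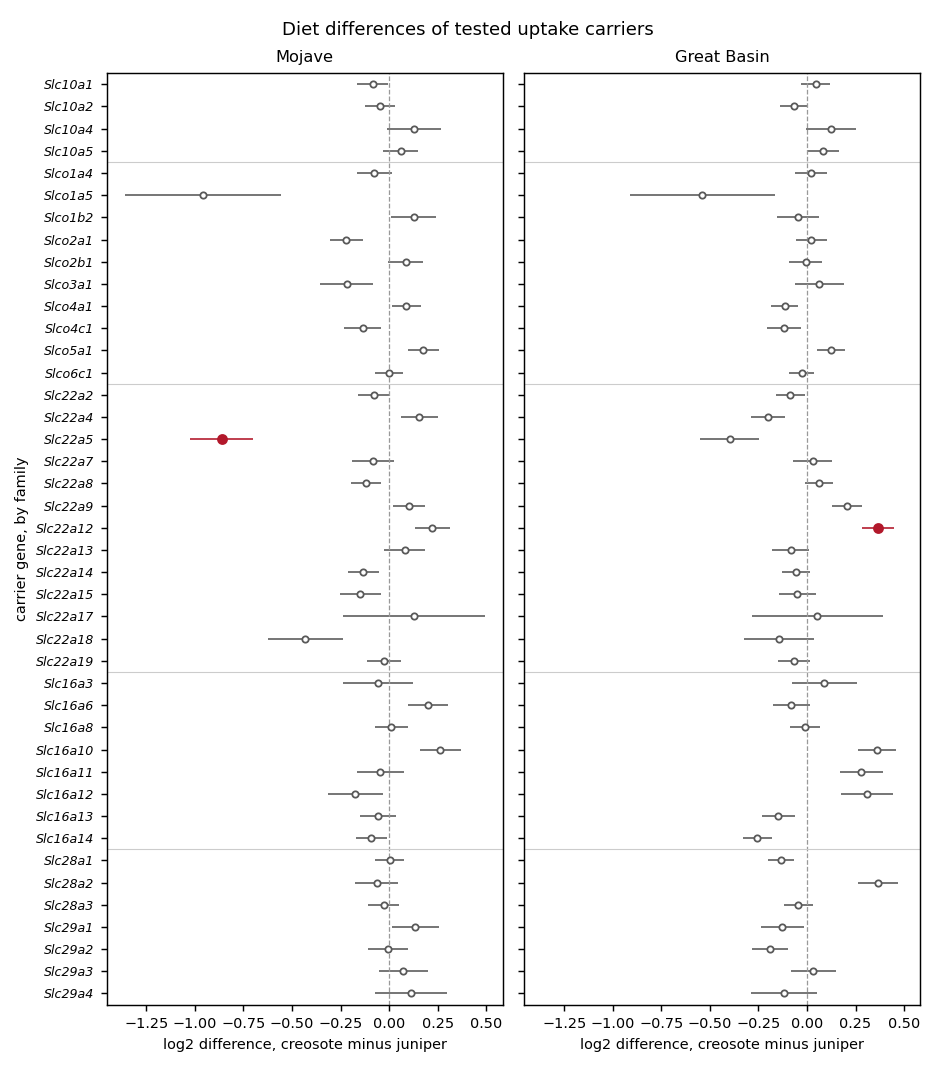
Log2 difference of creosote minus juniper (x axis) for 42 of the 43 tested carriers, ordered by family (y axis), in Mojave livers (left) and Great Basin livers (right). Points are limma estimates, lines are ± 1 standard error, and filled red points passed an adjusted p of 0.05. Slc22a5 passes in Mojave livers (-0.86) and Slc22a12 in Great Basin livers (0.37).

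Between populations no carrier passed the test in limma. On creosote 0 of 43 did, where 0.0793% of all genes passed, and 2 (4.65%) had an unadjusted p under 0.05, against 14.1% of all genes. On juniper 0 of 43 did, where 0.0113% of all genes passed, and 5 (11.6%) had an unadjusted p under 0.05, above the 8.05% of all genes. Averaged over diets 0 of 43 did, where 0.034% of all genes passed, and 4 (9.3%) had an unadjusted p under 0.05, against 9.3% of all genes. The groups did not overlap for 2 carriers on creosote (Slco1a5 higher and the creatine carrier Slc16a12 lower in Mojave livers), against 6.03% of all genes. On juniper they did not overlap for 3 carriers (Slc10a1 and Slc22a5 higher and Slc22a4 lower in Mojave livers), against 6.85% of all genes. The diet difference itself differed between populations for 0 of 43 carriers and for 0% of all genes in limma, and 3 carriers had an unadjusted p under 0.05, against 13% of all genes. Those 3 were Slc16a12 (-0.48), Slc28a2 (-0.43) and Slc22a4 (0.36), with limma adjusted p-values of 0.3058, 0.2384 and 0.2449. The standard error of this difference was 0.13 for the median gene.

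Among 18 tested nuclear receptors and factors known to control uptake carriers, 1 passed the test in each population, where 9.55% of all genes passed in Mojave livers and 3.97% in Great Basin livers. Nr1i3, the constitutive androstane receptor, averaged 0.38 ± 0.08 in Mojave creosote livers and -0.43 ± 0.10 in Mojave juniper livers, and 0.38 ± 0.23 in Great Basin creosote livers and -0.30 ± 0.15 in Great Basin juniper livers (SD, n = 4 each). It was higher on creosote by 0.74 ± 0.08 (SE) averaged over populations, with an adjusted p of 2.25e-05 in limma. The bile acid receptor Nr1h4 differed by -0.09 and the pregnane X receptor Nr1i2 by 0.21, with adjusted p-values of 0.5157 and 0.05669. Of 10 tested genes of thyroid hormone handling, 1 was higher on creosote averaged over populations, where 12.1% of all genes passed the test, the hormone carrier of plasma Ttr (0.91 ± 0.17, SE), which is also among the hepatocyte markers. In Mojave livers Ttr was higher and Thra of the same list was lower on creosote. The Thra difference there was -0.56 ± 0.16 (SE), with an adjusted p of 0.04035 in limma.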

How the data were processed

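Each of 16 two-colour Agilent rat arrays carried the liver RNA of 1 animal in red and the pool in green, and dyes were not exchanged. Per the file headers, the deposited files hold spot signals and local background as linear intensity from Agilent Feature Extraction 9.1.3.1, and a log10 ratio of red over green. The deposited log2 ratios of the series table equal the processed red over green signals of those files. Here, mean signals were corrected with normexp (offset 50) and normalized by loess within each array. Outlier spots were dropped, spots of a probe averaged, and probes kept where red was well above background on at least 4 arrays. Each gene took its brightest kept probe. Limma 3.58.1 in R 4.3.3 fitted 4 group means and sex to 26472 genes, with Benjamini-Hochberg adjustment over all of them and a threshold of 0.05. The number of arrays limits the precision. Code was tested on simulated data. Members and gene lists were chosen with earlier results of these data known. Named were the carriers called in any of 7 comparisons, those at 0.5 or more on the log2 scale between 2 groups, and well described family members; from each pathway list, the called members and up to 4 others with the smallest p. Alternatives changed the background offset, normalization, channel, filter, probe rule, sex term, slide and replicate blocks, and left out animals, females or slide 1. Results of some carriers are not reported here.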

Additional observations from a re-analysis of the deposited data

Results flagged for a closer look

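A single animal stood apart from the other 3 of its group in 7 of 140 groups examined for the named carriers, or 5%, and chance flags about 1 in 20 groups. Slc22a17 was -0.74 in Mojave juniper replicate 3, with the others at -0.47 to -0.44. Slc22a4, the ergothioneine carrier OCTN1, was 0.45 in Mojave creosote replicate 2, with the others at 0.01 to 0.07. The organic anion carrier Slc22a7 was -0.19 in Mojave juniper replicate 3, with the others at 0.14 to 0.15. In the same animal Slc28a2 was -0.11, with the others at 0.07 to 0.10. Slc29a2, the nucleoside carrier ENT2, was 0.27 in Mojave creosote replicate 4, with the others at -0.10 to -0.08. Slc29a3, a nucleoside carrier of intracellular membranes, was 0.26 in Great Basin creosote replicate 1, with the others at 0.06 to 0.09, and 0.59 in Mojave creosote replicate 3, with the others at -0.05 to 0.05.

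Slc22a4 was higher on creosote on all 4 slides among Mojave animals (0.02 to 0.50) and lower on creosote on all 4 slides among Great Basin animals (-0.33 to -0.02). The difference between those diet differences was 0.36 ± 0.13 (SE), with an adjusted p of 0.2449 in limma.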

How the results depend on the processing

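Over 252 comparisons of the 36 named carriers and 14 alternatives, 20 results lost and 28 gained the call. In 2 more the sign changed, with a call in the main fit or in the alternative. Sign changes of differences called in neither were not counted. The reversals were Slc16a14 averaged over populations, at 0.0729 in the red channel alone, and Slc28a1 in Mojave livers, at -0.27 under median centring. Only the few results called in the main fit could lose a call. Slc22a5 kept its calls throughout. Slc22a12 in Great Basin livers kept its call in 7 of the 14 alternatives. Averaged over populations, Slc16a10 kept its call in 11 of 14, Slc22a12 in 11 and Slc16a14 in 6. Carriers called in Great Basin livers numbered 1, and 0 with offset 0, with the mean of all kept probes, in males alone and without slide 1, 2 with all 16 arrays required and with the replicate block, and 5 with median centring. In Mojave livers they numbered 1, and 2 without the sex term or with every probe, and 5 with median centring. Averaged over populations they numbered 4, and 1 in males alone. Median centring called 4 carriers between populations on creosote and 3 for the difference in diet response, against 0 each. Of all 26472 genes it called 3118 and 2425 in those comparisons, against 21 and 0. Between diets it called 1153 of all genes in Great Basin livers and 4760 in Mojave livers, against 1052 and 2527. It moved the share of all called genes that were higher on creosote to 63.5% against 51.9% in Great Basin livers, to 13.7% against 40.1% in Mojave livers and to 29% against 47.3% averaged, and the share higher in Mojave on creosote to 5.97% against 42.9%. The cause was not tested. With 1 animal left out, carrier counts ran from 0 to 4 in Great Basin livers, 1 to 2 in Mojave livers and 3 to 5 averaged, and were 0 in the other comparisons. Deviations of animals with the same replicate number correlated at -0.17 to 0.14 over 24 pairs (median -0.03, against 0.02 for other pairs). The numbers were not treated as pairs in the main fit, though such a correlation cannot exclude a pairing. With the replicate block Slco1a5 averaged over populations (adjusted p = 0.03844) and Slc28a2 in Great Basin livers (0.03672) were called. Slide as a fixed block left the averaged count at 4, but Slc16a14 lost its call and Slco1a5 gained one. Slide as a random block, chosen after seeing the data (consensus correlation -0.016), changed no carrier call. Dim probes, 15 of 43 carriers, limit what can be seen.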
